A study of Mus musculus with 69 samples.

Results

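The response of Egfr-deficient vascular smooth muscle cells (KO VSMC) to high glucose plus free fatty acids (HG+FFA) was measured by bulk RNA-Seq in 8 of the 69 libraries of the series. They were chosen by their labels, as the libraries of genotype EGFR-KOsmc with the treatment HG+FFA or Control, and formed 4 pairs, one pair for each of the sample sets 5 to 8. KO VSMC were primary cells from the aorta of male C57BL/6 mice in which Cre under the SM22 promoter was used to remove a floxed Egfr, so that all 8 libraries come from the deleted genotype by label, although set 5 kept part of its Egfr RNA. Each set came from a single animal, and its libraries were treated side by side. The cells had been grown in serum, kept without serum before the experiment and then exposed for 24 h to 20 mM glucose with free fatty acids or to Control medium. The labels give 100 µM free fatty acids, whereas the study's methods name oleate and palmitate at 100 µM each, with albumin in all solutions including Control. These are cultured cells of 4 animals without flow or other vessel cells, so that the libraries model 1 cell type of the aortic wall only. The other 7 KO VSMC libraries had received angiotensin II and a catecholamine (AII+NA) or these and HG+FFA together (ALL). No ALL library of set 5 was among the 69 libraries. Cells without the deletion (WT VSMC, sets 1 to 4, n = 4 for each treatment) were used for comparison.

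Free fatty acids that enter a cell are bound by fatty acid binding proteins, activated to acyl-CoA and either stored as triglycerides in lipid droplets or carried through the carnitine shuttle into mitochondria and oxidized. They are also ligands of the peroxisome proliferator-activated receptors (PPAR), nuclear receptors that pair with RXR and switch on genes of fatty acid transport and oxidation. Glucose is sensed by MondoA and ChREBP, which bind E-box sequences near genes such as Txnip and Arrdc4, and is stored as glycogen. Cholesterol and its oxidized forms act through the nuclear receptor LXR, while unsaturated fatty acids dampen the SREBP-1 and LXR programmes of lipid synthesis. In smooth muscle, these routes are studied because lipid loading accompanies the change to a less contractile cell.

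The deleted gene was examined first. FPM, the reads of a gene per 1000000 reads assigned to genes after TMM scaling, is the unit of all levels. Egfr stood at 39.4 FPM under Control and 33.1 FPM under HG+FFA in set 5. The other sets held 0.670, 0.521 and 1.71 FPM (Control) and 1.54, 1.04 and 1.96 FPM (HG+FFA). Averaged over its libraries, set 5 thus kept 10.5% of the mean WT VSMC level and sets 6, 7 and 8 kept 0.356, 0.277 and 0.532%. HG+FFA gave Egfr a log2FC of 0.31 ± 0.22 (SE, edgeR FDR 0.544). Because set 5 retained Egfr RNA, the counts of genes that responded are given with and without it.

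The 8 libraries held 23238979 to 35120866 counts. Of the smooth muscle markers, Acta2 lay between 592 and 2545 FPM. Tagln, a gene with 66.7% of its exonic bases shared with other genes, did not exceed 11 FPM. Myh11 stood at 238 and 229 FPM in the Control and HG+FFA libraries of set 5 and at 2.11 to 9.78 FPM in sets 6 to 8. Cnn1 likewise had 353 and 418 FPM in set 5 and 7.23 to 78.8 FPM in sets 6 to 8. Smtn and Cald1 were not highest in set 5. The 12 endothelial markers summed to 116 to 279 FPM, with Eng at 108 to 263 FPM and Erg at up to 12 FPM, while Pecam1 and Cdh5 did not exceed 1.46 and 1.70 FPM. Leukocyte markers summed to 158 and 190.3 FPM in the Control and HG+FFA libraries of set 5. In those of sets 6 to 8 they summed to 10.8 to 38.5 FPM. The sums came mostly through Lyz2, and Cd3e was at 0 in all 8. Under Control, C1qa and Adgre1 stood at 9.04 and 6.70 FPM in set 5. In sets 6 to 8 they did not exceed 0.335 and 0.0838 FPM there. Csf1r had 9.86 FPM under Control in set 5 and up to 4.20 FPM in sets 6 to 8. In bulk RNA, fewer cells of a type and less RNA per cell cannot be told apart.

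Exposure to HG+FFA changed 50 of 17538 genes tested (0.285%), of which 41 (0.234%) were higher and 9 (0.0513%) lower than under Control. A gene was called differentially expressed (DEG) where both edgeR and DESeq2 put its FDR under 0.05, its |log2FC| reached 0.64 and its mean reached 3 FPM in 1 group, among protein-coding genes (47 of the DEG) and lncRNA (3). At an unadjusted p under 0.05 stood 2181 genes (12.4%). The model paired the libraries by animal and was fitted over all 15 KO VSMC libraries. Fitted on the 8 libraries alone it called 0 genes (0 by edgeR, smallest FDR 0.309, and 56 by DESeq2 alone, with 755 at an unadjusted p under 0.05). Among the strongest rises were those of Angptl4, Stbd1 and Pdk4, and the DEG that fell included Ppp1r3c, Arrdc4, Mylip and Scd2. All 50 DEG moved the same way in 4 of 4 sets, where 13.5% of all genes tested did so, but in this contrast the call itself favours such genes. For 9 DEG the 4 HG+FFA libraries did not overlap the 4 Control libraries (1.1% of all genes). Without set 5, 289 of 16821 genes were called (1.72%, 163 or 0.969% higher and 126 or 0.749% lower), 48 of the 50 among them. Scd2 and the olfactory receptor gene Or5m3b were the DEG not called without set 5, where they had -0.60 (FDR 0.0153) and 0.96 (FDR 0.0552) on the log2 scale, against -0.66 and 1.07 with it.

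**Figure D1:**
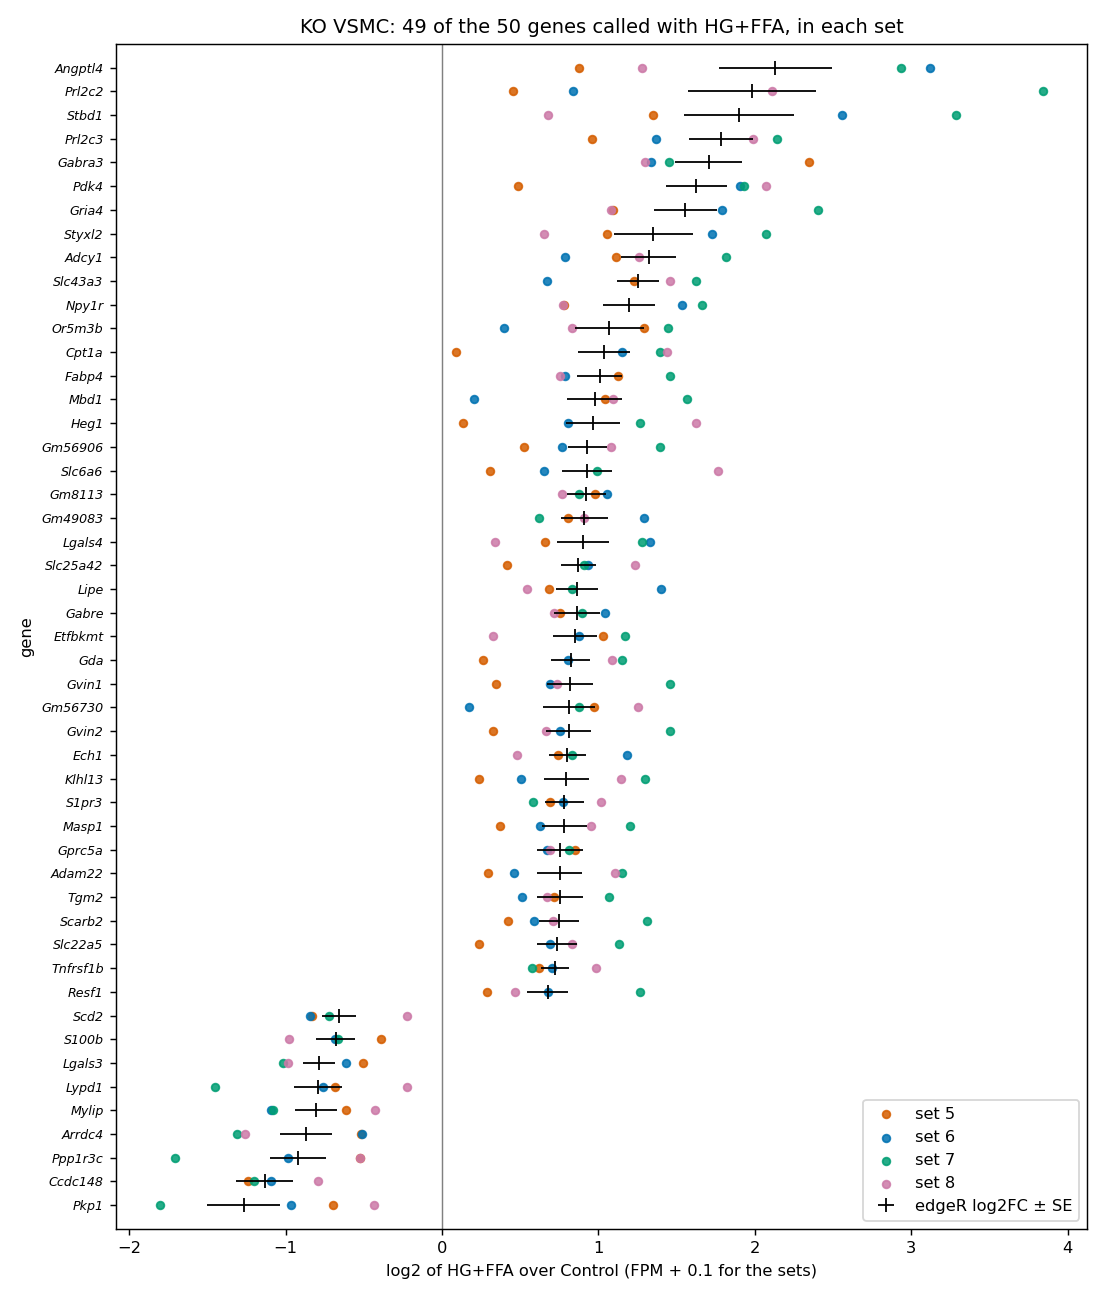
Log2 ratio of HG+FFA over Control (x axis) for 49 of the 50 DEG of KO VSMC (y axis), with 1 coloured point for each of sets 5 to 8 and the edgeR log2FC with its SE as a black tick and bar. All points lie on the side of the call, and Angptl4, Pdk4 and Cpt1a show their smallest ratio in set 5.

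Genes that PPAR are known to switch on formed the gene list with the most DEG. The lists had been chosen with earlier results of these data known. Of 36 PPAR target genes tested, 7 were DEG that rose (19.4%, against 0.234% of all genes) and 0 were DEG that fell. Their median log2FC was 0.32, against 0.0035 over all genes. At an unadjusted p under 0.05 in edgeR, 19 of the 36 were higher and 2 lower (all genes 6.36% and 6.07%). At any size of log2FC, 11 were higher and 1 lower with an FDR under 0.05 in both tools. Without set 5, 8 of 34 rose (all genes 0.969%) and 0 fell, with a median of 0.29 (all genes 0.012).

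Angptl4 (chromosome 17, 33992724 to 34000804 in GRCm39), a secreted inhibitor of lipoprotein lipase, stood at 409, 28.4, 31.2 and 245 FPM in the Control libraries of sets 5, 6, 7 and 8 and 749.6, 247, 239 and 594 FPM in the HG+FFA libraries. The level rose in every pair, and sets 5 and 8, which began high, ended above the rest. The change amounted to 4.38-fold, a log2FC of 2.13 ± 0.36 (SE) and an FDR of 0.0151 in edgeR's quasi-likelihood test with Benjamini-Hochberg adjustment, which is the test behind every FDR given here. Pdk4 (chromosome 6, 5483097 to 5496339), the kinase that shuts pyruvate out of the pyruvate dehydrogenase reaction, was measured at 41.5, 55.4, 42.9 and 32.1 FPM under Control and 58.0, 207, 163 and 135 FPM under HG+FFA, in the same order of sets. The groups did not overlap, and the increase was smallest in set 5. It gave a log2FC of 1.63 ± 0.19 (SE) and an FDR of 0.00169.

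Cpt1a (chromosome 19, 3371853 to 3437996), which forms acylcarnitine at the outer mitochondrial membrane, reached nearly the same level in all HG+FFA libraries. It was at 245, 249.8, 241 and 244 FPM there, after 231, 113, 91.9 and 90.0 FPM under Control. Set 5 began near the level at which the other sets ended, so that its log2 ratio was 0.09 where sets 6, 7 and 8 had 1.15, 1.39 and 1.44. Over all sets this was a log2FC of 1.04 ± 0.17 (SE) and an FDR of 0.0121, and 1.33 on the log2 scale without set 5. Slc22a5 (chromosome 11, 53753315 to 53782703), the carnitine transporter of the plasma membrane, went from 27.6, 23.7, 25.2 and 19.9 FPM to 32.5, 38.2, 55.1 and 35.6 FPM, again least in set 5. Ech1 (chromosome 7, 28524036 to 28531674), an isomerase for unsaturated acyl chains, went from 198, 108, 151 and 218 FPM to 331, 244, 268 and 303 FPM without overlap of the groups. Fabp4 (chromosome 3, 10268785 to 10273737), a fatty acid binding protein, was far higher in set 8, at 62.0 and 104 FPM, than in the other sets, which moved from 5.51, 3.66 and 3.45 to 12.1, 6.39 and 9.65 FPM. All 3 genes rose in each of the animals. The log2FC of Slc22a5, Ech1 and Fabp4 were 0.73, 0.80 and 1.01, with FDR of 0.0155, 0.00662 and 0.00459.

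**Figure D2:**
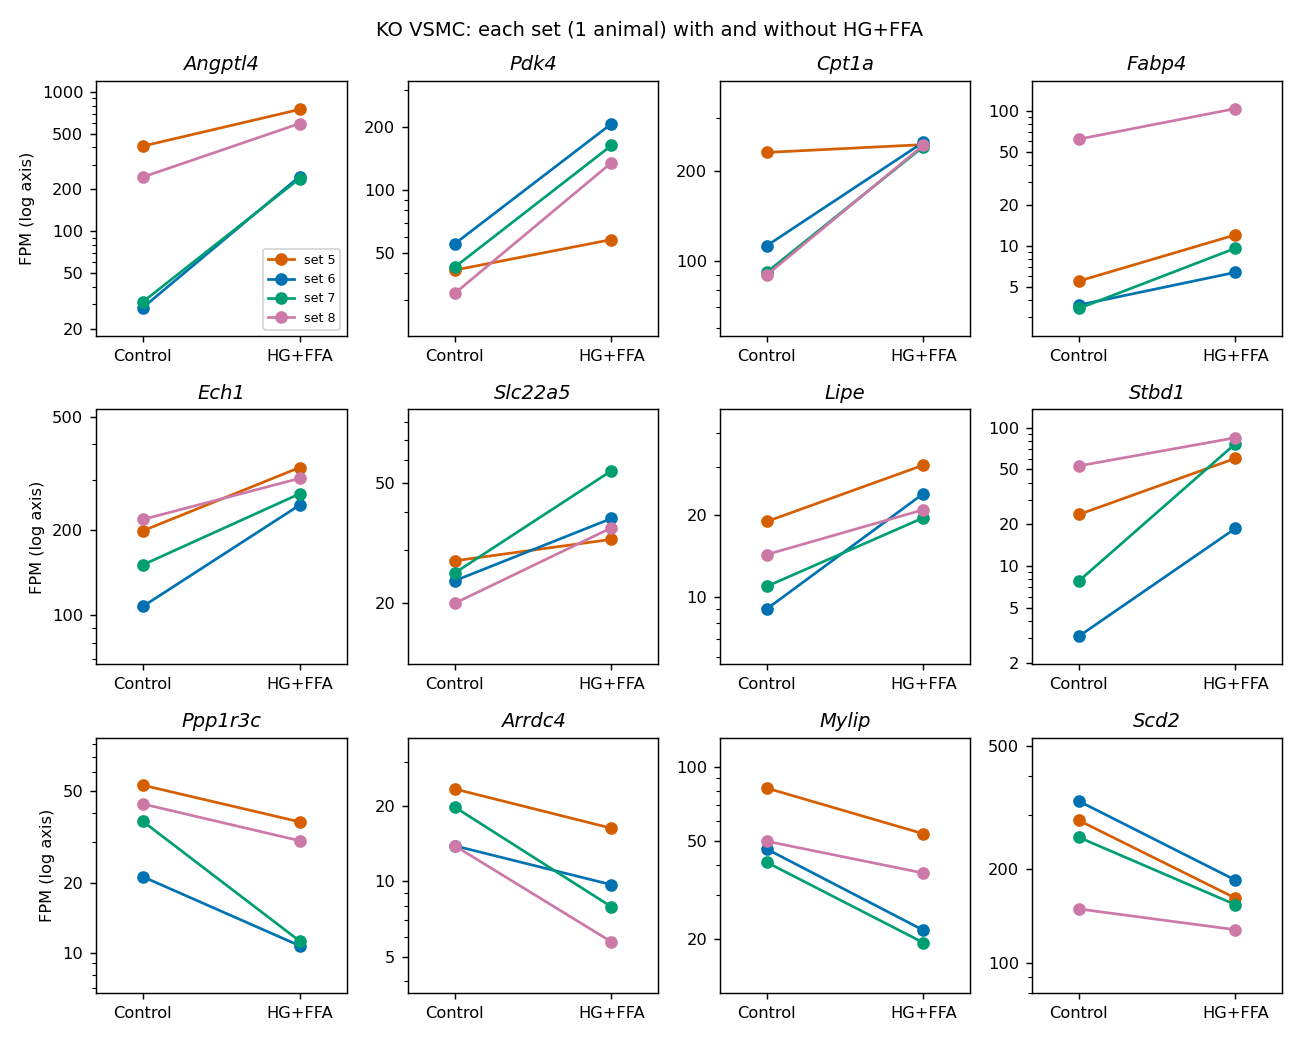
Levels in FPM (y axes, log scale) of 12 DEG of lipid, glycogen and glucose metabolism in the Control and HG+FFA library of each KO VSMC set (1 line per animal). Cpt1a converges at 241 to 249.8 FPM under HG+FFA, and Ppp1r3c, Arrdc4 and Scd2 fall in every set.

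Further DEG belong to mitochondria and to fat breakdown. Lipe (chromosome 7, 25078880 to 25098135), the hormone-sensitive lipase that splits stored diglycerides, had 18.9, 9.02, 10.9 and 14.3 FPM under Control and 30.5, 23.9, 19.5 and 20.9 FPM under HG+FFA. The groups were separate, with a log2FC of 0.86 ± 0.13 (SE) and an FDR of 0.00900. Slc25a42, the mitochondrial carrier of coenzyme A, rose from 26.9 ± 7.20 to 48.3 ± 2.93 FPM (mean ± SD, n = 4 each, log2FC 0.87, FDR 0.00234). Etfbkmt, which methylates the electron transfer flavoprotein that takes electrons from acyl-CoA dehydrogenases, rose with a log2FC of 0.85 (FDR 0.0138).

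The median member of each pathway list moved less than these genes. Of 36 genes of mitochondrial and peroxisomal fatty acid oxidation, 1 was a DEG (Cpt1a, 2.78%, all genes 0.285%), and the median log2FC was 0.09. Ech1 is not on this list. At an unadjusted p under 0.05 in edgeR, 11 of the 36 were higher and 1 lower (all genes 6.36% and 6.07%). Among 24 genes of fatty acid uptake and activation, 1 was a DEG (Fabp4, median 0.03), with 4 higher and 1 lower at that p. Among 23 genes of lipid droplets and triglyceride turnover, 1 was a DEG (Lipe, median -0.0015), with 5 higher and 2 lower. Without set 5 the DEG of these 3 lists were the same. Another 24 genes passed the FDR in both tools with a |log2FC| under 0.64, which makes 74 genes (0.422%) at any size. Among them, named here after their values were seen, were the droplet protein Plin2 (0.54, FDR 0.0402), the carnitine-acylcarnitine carrier Slc25a20 (0.47, FDR 0.0264), the dehydrogenase Acadl (0.39, FDR 0.0402) and the acyltransferase Agpat3 (0.47, FDR 0.0393). The peroxisomal thiolase Acaa1a had -0.16 (FDR 0.553).

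Desaturases differed in direction. Scd2 (chromosome 19, 44281613 to 44295303), which places the first double bond into saturated acyl chains, fell from 288, 332, 254 and 149 FPM to 161, 185, 154 and 128 FPM in sets 5, 6, 7 and 8. It was lower in every pair, least in set 8, which began lowest, with a log2FC of -0.66 ± 0.11 (SE) and an FDR of 0.0138. Its paralogue Scd1 had a log2FC of -0.49 (FDR 0.0756). By contrast Fads1 and Fads2, which desaturate polyunsaturated chains, had log2FC of 0.52 and 0.45 (FDR 0.0115 and 0.0422), short of the 0.64 limit although both tools put the FDR under 0.05. Of 18 genes of fatty acid synthesis, desaturation and elongation, Scd2 was the only DEG (median 0.05).

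Mylip (chromosome 13, 45543215 to 45565501), the ubiquitin ligase that LXR induces and that degrades the LDL receptor, had 81.9, 46.3, 40.9 and 49.8 FPM under Control and 53.4, 21.6, 19.3 and 37.0 FPM under HG+FFA. It fell in every pair, with a log2FC of -0.81 ± 0.13 (SE) and an FDR of 0.0147. It was the only DEG of 16 LXR targets and cholesterol efflux genes, where 7 were lower and 2 higher at an unadjusted p under 0.05 (all genes 6.07% and 6.36%). Their median log2FC was -0.22. Without set 5, 3 of 15 fell (all genes 0.749%), namely Mylip, Apoe and Apod (-0.88, -1.05 and -1.61). The lysosomal cholesterol exporter Npc1 rose (0.76). With set 5, Apoe had -0.77 (FDR 0.160) and the transfer protein Pltp -0.20 (FDR 0.491). The LDL-family receptor gene Vldlr had -0.58 (FDR 0.0402). None of 25 genes of cholesterol synthesis and LDL uptake was a DEG (3 higher and 0 lower at an unadjusted p under 0.05, median 0.11).

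Glycogen and glucose sensing were each represented by few genes. Stbd1 (chromosome 5, 92750891 to 92754438), which ties glycogen to membranes, had 23.6, 3.10, 7.79 and 53.0 FPM under Control and 60.2, 18.7, 76.9 and 84.9 FPM under HG+FFA. Sets 6 and 7 began lowest and rose most, and the gene gave a log2FC of 1.90 ± 0.35 (SE) and an FDR of 0.0221. Ppp1r3c (chromosome 19, 36708523 to 36714070), the subunit that brings protein phosphatase 1 to glycogen and favours its synthesis, fell from 52.8, 21.3, 36.9 and 43.8 to 36.7, 10.7, 11.2 and 30.4 FPM, with a log2FC of -0.92 ± 0.18 (SE) and an FDR of 0.0302. These were the only DEG among 23 genes of glycogen metabolism (median log2FC 0.02), in which the phosphorylase Pygb had -0.21 (FDR 0.480). Arrdc4 (chromosome 7, 68386742 to 68398999), an arrestin-like inhibitor of glucose uptake, fell from 23.4, 13.9, 19.8 and 13.9 to 16.3, 9.70, 7.91 and 5.73 FPM, with a log2FC of -0.87 ± 0.17 (SE) and an FDR of 0.0300. The related gene Txnip had a log2FC of -0.38 (FDR 0.399), in 3 of 4 sets downwards. Of 10 glucose-sensing targets, 0 rose and 1 fell (median 0.03), and of 40 genes of glucose transport, glycolysis and pyruvate entry, Pdk4 alone was a DEG (median -0.01).

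The E-box CACGTG that these factors read was looked up, on either strand, in the promoters of the DEG (RefSeq, build GRCm38.p6, 250 bases before to 50 bases after the start). It is its own reverse complement, so 1 match serves both strands. Of 50 DEG, 30 had a promoter in the table, with 38 promoters in all, and 5 of these (13.2%) held CACGTG, where 7.15% of all 32851 promoters did. They belonged to Arrdc4, Ppp1r3c and Lypd1, which fell, and to Lipe and Adcy1, which rose. Lypd1 and Lipe also had promoters without it. The direct repeat of AGGTCA with 1 base between the copies, read by PPAR with RXR and searched on both strands, was in 0 of the 38 and in 0.0396% of all. A match is a description of the letters only. Promoters of 2 DEG of glucose storage and sensing that fell and of the lipase that rose are printed with the E-box in capitals. The Lipe promoter printed is the one with the E-box and lies within the span of the gene. Each printed promoter matched once in GRCm39 on the reverse strand, at chr7:68398937-68399236, chr19:36713955-36714254 and chr7:25095363-25095662. The first letter of the E-box lies at -193, -104 and -155 bases from the start, negative values being before it.
Arrdc4: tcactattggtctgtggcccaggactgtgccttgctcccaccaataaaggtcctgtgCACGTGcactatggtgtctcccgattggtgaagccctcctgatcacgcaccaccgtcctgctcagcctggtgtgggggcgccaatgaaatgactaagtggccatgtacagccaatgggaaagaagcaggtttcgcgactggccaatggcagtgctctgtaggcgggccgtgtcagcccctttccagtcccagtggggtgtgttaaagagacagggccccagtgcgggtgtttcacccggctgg
Ppp1r3c: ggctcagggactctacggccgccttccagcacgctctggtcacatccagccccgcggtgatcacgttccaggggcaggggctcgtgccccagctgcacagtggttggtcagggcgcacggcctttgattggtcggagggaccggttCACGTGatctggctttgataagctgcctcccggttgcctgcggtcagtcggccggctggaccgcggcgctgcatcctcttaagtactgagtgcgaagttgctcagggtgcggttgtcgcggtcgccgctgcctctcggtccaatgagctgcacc
Lipe: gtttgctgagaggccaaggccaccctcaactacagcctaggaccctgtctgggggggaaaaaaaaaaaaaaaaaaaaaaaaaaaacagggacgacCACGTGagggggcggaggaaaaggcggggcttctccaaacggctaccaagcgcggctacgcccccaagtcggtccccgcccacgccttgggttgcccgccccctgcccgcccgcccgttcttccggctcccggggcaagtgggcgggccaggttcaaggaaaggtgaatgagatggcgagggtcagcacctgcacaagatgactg

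Receptors and channels of the cell surface made up another part of the DEG, though no list was made for them. Gabra3 and Gabre, subunits of the GABA-A receptor, and Gria4, a subunit of the AMPA glutamate receptor, rose with log2FC of 1.70, 0.86 and 1.55 (FDR 0.00234, 0.0155 and 0.00234). Gria4 went from 15.3, 0.838, 8.73 and 31.4 to 32.6, 3.14, 46.5 and 66.4 FPM and so stayed low in set 6. Gabra3 was very low in set 6, at 0.140 and 0.505 FPM, and rose from 3.06, 5.51 and 7.12 to 16, 15.2 and 17.7 FPM in sets 5, 7 and 8. Npy1r, a receptor of neuropeptide Y that mediates vasoconstriction, rose with a log2FC of 1.19 (FDR 0.00324), as did the adenylate cyclase Adcy1 (1.32, FDR 0.00265), the sphingosine-1-phosphate receptor S1pr3 (0.78, FDR 0.0106) and the TNF receptor Tnfrsf1b (0.72, FDR 0.00198). The transporters Slc43a3, which carries purine bases, and Slc6a6, which takes up taurine, rose by 1.25 and 0.92 on the log2 scale (FDR 0.00157 and 0.0159). Slc43a3 stood at 48.4 ± 10.2 FPM under Control and 119.6 ± 40.4 FPM under HG+FFA (SD, n = 4 each).

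Among the other DEG that rose were the endothelial and cardiac junction gene Heg1 (0.97, FDR 0.0203), the cross-linking enzyme Tgm2 (0.75, FDR 0.0328), the lysosomal membrane protein Scarb2 (0.75, FDR 0.0155) and the methyl-CpG binding gene Mbd1 (0.98, FDR 0.0213). Tgm2 was separate between the groups, at 113, 148, 121 and 114 FPM under Control and 186, 211, 253 and 183 FPM under HG+FFA. Pairs of near-identical genes appear more than once. The prolactin-family genes Prl2c2 and Prl2c3 (1.98 and 1.78) and the interferon-inducible GTPases Gvin1 and Gvin2 (0.82 and 0.81) may share reads, since reads with several alignments were counted, and their values are uncertain as separate genes. Prl2c2 did not exceed 24.3 FPM in any library and had 0.646, 1.73, 0.684 and 5.55 FPM under Control and 0.919, 3.17, 11.2 and 24.3 FPM under HG+FFA, so that its rise was large in sets 7 and 8 only. Low genes that rose were Styxl2 (1.35, FDR 0.0263) and the olfactory receptor gene Or5m3b (1.07, FDR 0.0469), and 6 DEG had a mean under 10 FPM in both groups. Further DEG that rose were the guanine deaminase Gda (0.82), the galectin Lgals4 (0.90), the ubiquitin ligase adaptor Klhl13 (0.79), the orphan receptor Gprc5a (0.76), the disintegrin Adam22 (0.75), the retroelement silencer Resf1 (0.68), the lncRNA Gm56906 (0.93) and Gm56730 (0.81), and Gm8113 (0.92) with the lncRNA Gm49083 (0.91) on the same chromosome, which may share reads, with FDR between 0.00265 and 0.0482.

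The DEG that fell also included the desmosomal plakophilin Pkp1 (-1.27, FDR 0.0213), the coiled-coil gene Ccdc148 (-1.13, FDR 0.0130), the GPI-anchored Lypd1 (-0.79, FDR 0.0304), the galectin Lgals3 (-0.79, FDR 0.00261) and the calcium-binding S100b (-0.68, FDR 0.0213). Lgals3, a beta-galactoside-binding protein, had 84.3, 137, 136 and 68.0 FPM under Control and 59.3, 89.7, 67.4 and 34.3 FPM under HG+FFA. Each animal lost Lgals3, although the HG+FFA level of set 6 was above the Control level of sets 5 and 8. Pkp1 rested on few animals, with 0.646, 39.8, 10.5 and 0.185 FPM under Control and 0.361, 20.3, 2.93 and 0.111 FPM under HG+FFA, and lay at or below 0.646 FPM in sets 5 and 8.

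The remaining lists held no DEG by edgeR with DESeq2 (DESeq2 alone called 1 higher and 2 lower). At an unadjusted p under 0.05 in edgeR, genes of the ER stress and integrated stress response had 1 higher and 8 lower of 31, median -0.09, with the chaperones Hspa5, Hsp90b1 and Pdia6 at -0.31, -0.22 and -0.40 (FDR 0.248, 0.406 and 0.177). None of these chaperones passed the adjustment. Of the 31, 1 other member was lower with an FDR under 0.05 in both tools. Its |log2FC| was short of the limit for a DEG, and it is not named here. Extracellular matrix genes had 6 higher and 9 lower of 45, median -0.02. Receptors for the humoral stressors and their modulators had 0 higher and 2 lower of 19, median -0.18. In 4 of 4 sets, 4 members were higher and 1 lower, while 13.5% of all genes moved the same way in 4 of 4. Of all 19, the angiotensin-converting enzyme Ace, the signalling regulator Rgs5 and the adrenoceptor Adra1d had -0.71, -0.76 and -0.30 (FDR 0.101, 0.269 and 0.404). The cell cycle list had 4 higher and 1 lower of 40, median 0.26, with Ccnd2 at 0.19 (FDR 0.502). The differences of Ace, Rgs5, Adra1d and Ccnd2 did not pass either. Oxidative phosphorylation subunits had 1 higher and 3 lower of 33, median -0.12, antioxidant and NRF2 target genes 3 higher and 4 lower of 32, median -0.06, inflammatory genes 6 higher and 0 lower of 32, median 0.05 and contractile genes 2 higher and 3 lower of 28, median -0.03. Of these, Cox4i1, Fth1, Csf1 and Acta2 had -0.25, -0.33, 0.31 and -0.14 (FDR 0.472, 0.365, 0.318 and 0.677).

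The EGFR family, its ligands and feedback genes had 3 higher and 0 lower of 30, median -0.01, and the insulin, IGF and imprinted genes 2 higher and 4 lower of 26, median 0.0025, with Igfbp7 at 0.12 (FDR 0.665). For the polyol, hexosamine and AGE pathway it was 0 higher and 1 lower of 13, median -0.05, for the circadian and glucocorticoid list 3 higher and 3 lower of 21, median 0.11 and for the fatty acid sensors 4 higher and 0 lower of 12, median 0.0021. In the circadian list Klf15, a factor of fasting metabolism, passed the FDR in both tools with a log2FC of -0.56 (FDR 0.0151), short of the 0.64 limit and named after its value was seen. Among all genes tested, 6.36% were higher and 6.07% lower at that p.

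**Figure D3:**
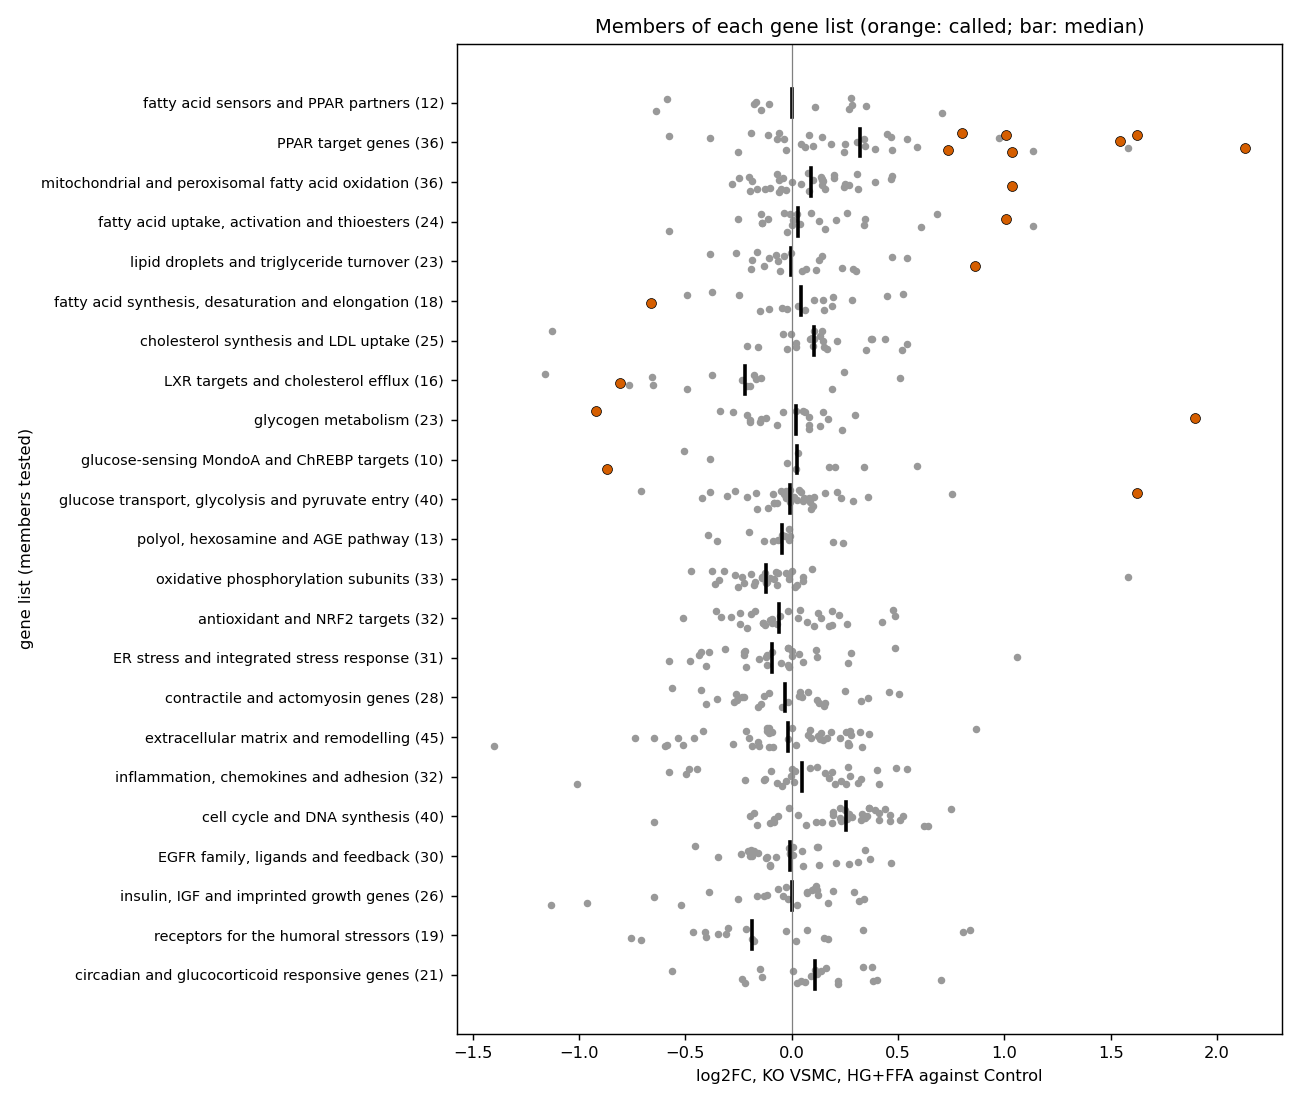
Log2FC of HG+FFA against Control in KO VSMC (x axis) for the members tested of each gene list (y axis, number of members in brackets). Orange points are DEG, grey points the other members, and the black bar is the median, which is 0.32 for PPAR target genes.

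Marker genes of fibroblasts were mostly lower under HG+FFA. Of 10 fibroblast markers, 6 were lower and 0 higher at an unadjusted p under 0.05 (all genes 6.07% and 6.36%). None of these markers was a DEG by edgeR with DESeq2 or passed edgeR's FDR, and their median log2FC was -0.36. Summed, they went from 3774, 688, 1760.0 and 1014 FPM under Control to 3627, 653, 1303 and 910.1 FPM under HG+FFA in sets 5, 6, 7 and 8, a lower value in each set. Pi16 had a log2FC of -0.77 (FDR 0.0617) and Scara5 -1.08 (FDR 0.104), while Pdgfra had 0.02. None of these markers was at 0 in any of the 8 libraries. Smooth muscle markers had 1 higher and 1 lower of 8 at an unadjusted p under 0.05 and no DEG. They summed to 1703 to 4119.6 FPM under Control and 1630.4 to 4348 FPM under HG+FFA. Of 8 adipocyte markers, only Lipe and Fabp4 passed the count filter, and Adipoq, Plin1, Cidec, Lep and Pck1 did not exceed 0.164 FPM in any library. S100b was the only DEG of the Schwann cell and neuronal markers, of which Sox10 had a log2FC of -0.15. Of 4 mesothelial and epithelial markers tested, 2 were higher at an unadjusted p under 0.05 and 0 lower (all genes 6.36% and 6.07%). The 2 were Upk3b at 0.51 (FDR 0.0858) and Msln at 0.79 (FDR 0.205). The sums of that list were 6.43, 22.2, 62.2 and 28.3 FPM under Control and 8.08, 33.4, 80.5 and 37.2 FPM under HG+FFA, higher in each set. The part of such cells in the genes that rose or fell was not tested.

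The animals differed in how strongly they responded. The median log2 ratio of the 50 DEG in the direction of the call was 0.69, 0.81, 1.27 and 0.93 in sets 5, 6, 7 and 8, and the smallest of the 4 ratios was found in set 5 for 22 DEG, in set 8 for 17, in set 6 for 8 and in set 7 for 3. These genes were chosen on the same libraries. The 48 DEG of HG+FFA in WT VSMC, which use no KO VSMC library, had a median log2 ratio in their WT direction of 0.56, 0.37, 0.92 and 1.08 in the 4 KO VSMC sets, with 44, 38, 43 and 45 of the 48 on the side of the WT call. By this measure set 5, with its residual Egfr RNA, lay between set 6 and set 7. Over all genes tested, the median absolute log2 ratio was 0.25, 0.15, 0.30 and 0.44, so that the libraries of set 8 were the farthest apart and those of set 6 the closest.

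The number of DEG depended on which animals were included. Without set 6, 5 genes were called, 5 of them among the 50. Without set 8 it was 30, with 27 among the 50, and without set 7 it was 0 (0 by edgeR and 40 by DESeq2 alone, with 910 genes at an unadjusted p under 0.05 and a smallest edgeR FDR of 0.0815).

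**Figure D4:**
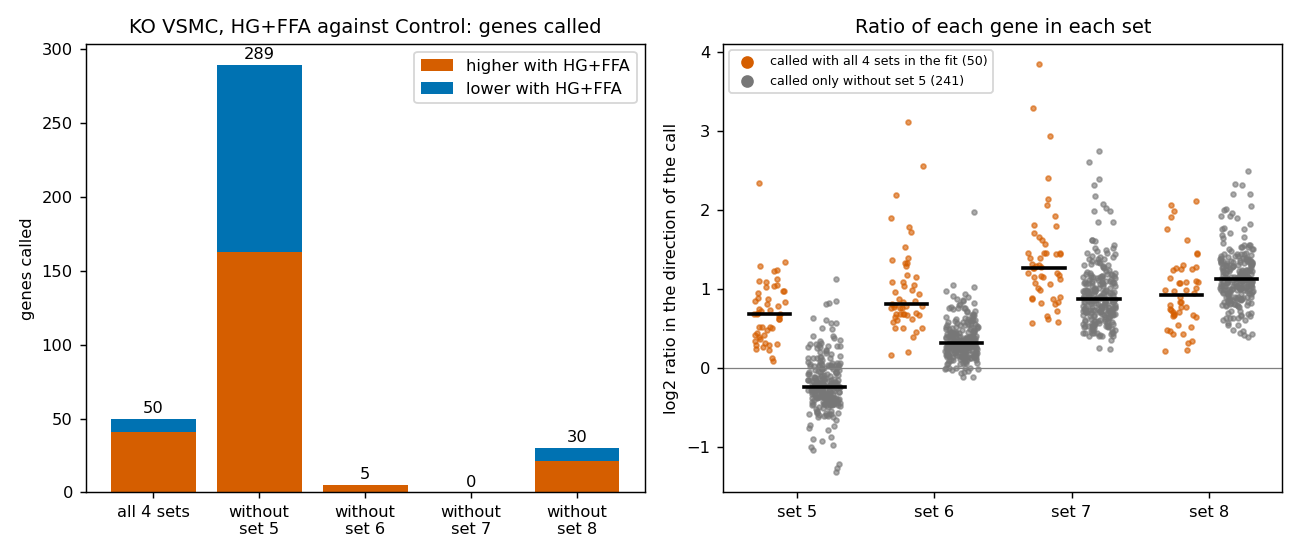
Left, number of DEG for HG+FFA against Control in KO VSMC (y axis) with all sets and with each set left out, split into higher and lower. Right, log2 ratio of single genes in the direction of their call (y axis) in each set, for the 50 DEG (orange) and the 241 genes called only without set 5 (grey), with black bars at the medians, which for the grey genes are -0.23, 0.32, 0.87 and 1.12.

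Leaving out set 5 added 241 DEG, 123 higher and 118 lower, which are a description of sets 6 to 8 only. Being called once set 5 was gone favours genes that set 5 opposed, and 182 of them had the opposite sign there. Those of them that fell most were Apod, a lipocalin that carries small lipids, at -1.61, the cardiac-type troponin Tnnt2 (-1.53), the neurotrophic ligand Nrtn (-1.48), the enkephalin precursor Penk (-1.45), the imprinted Dlk1 (-1.28), 6330403K07Rik (-1.26), Crip1 (-1.25), Mir503hg (-1.25), the fibroblast marker Scara5 (-1.23) and Ifitm10 (-1.19). Tnnt2 had 17.4, 188, 70.0 and 84.8 FPM under Control in sets 5, 6, 7 and 8 and 22, 110.5, 19.4 and 20.9 FPM under HG+FFA. Set 5 thus began with the least Tnnt2 and alone did not lose it. Nrtn showed the same arrangement, at 41.9, 129, 274 and 191 FPM under Control and 50.5, 78.7, 68.9 and 63.9 FPM under HG+FFA.

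Of the genes called only without set 5, those that rose most were the mitochondrial folate enzyme Aldh1l2 (1.78), Lrrc39 (1.36), the protocadherin Pcdhga1 (1.36), the Ras exchange factor Rasgrp3 (1.15), the diacylglycerol kinase Dgkh (1.13), Mfsd4a (1.09), Zfp970 (1.09), the nuclear lncRNA Malat1 (1.08), Adamts14 (1.05) and the repressor Zbtb20 (1.02). Malat1 had 353, 229.7, 232 and 408 FPM under Control and 229, 283, 975 and 884 FPM under HG+FFA, a large rise in sets 7 and 8, a small one in set 6 and a lower value in set 5. With set 5 in the fit its log2FC was 0.67 (FDR 0.360). Aldh1l2 was lower under HG+FFA in set 5, where it went from 11.4 to 4.89 FPM, and rose from 2.40, 3.06 and 1.16 to 3.20, 19.2 and 6.17 FPM in the other sets. In ALL against AII+NA, 154 of the 241 genes had the same direction and 18 were DEG, where 50.5% of all genes had the direction of the fit with all sets and 0.883% were DEG. In WT VSMC it was 226 and 10 of 241, where the shares of all genes were 68.5% and 0.284%.

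Without set 5, 31 of 616 list members were called in place of 13, while the calls over all genes went from 50 (0.285%) to 289 (1.72%). Pparg, the PPAR that drives fat storage, had 2.07, 1.51, 3.10 and 3.33 FPM under Control and 2.1, 2.41, 4.82 and 8.69 FPM under HG+FFA in sets 5, 6, 7 and 8. It rose in sets 6 to 8, with a log2FC of 0.90 (FDR 0.0256), and with set 5 in the fit had 0.71 (FDR 0.206). Of the PPAR targets, Klf10 was added at 0.82 (FDR 0.0149). Pfkfb3, which makes the activator of phosphofructokinase, and the clock gene Per2 rose at 1.01 (FDR 0.0279) and 0.97 (FDR 0.0213), and the fructokinase Khk fell at -0.75 (FDR 0.0149). The peroxidase Gpx1 fell at -0.80 (FDR 0.0128), with 24.7, 26.6, 49.9 and 44.6 FPM under Control and 31.7, 21.3, 26.1 and 20.8 FPM under HG+FFA. Matrix genes that fell were Mgp, which inhibits calcification, the protease inhibitor Timp1 and the proteoglycan and fibroblast marker Lum, at -0.75 (FDR 0.0172), -0.73 (FDR 0.0147) and -0.72 (FDR 0.0474). Of the renin-angiotensin genes, Agt, the precursor of angiotensin, and Ace fell at -0.82 (FDR 0.0356) and -0.86 (FDR 0.0201). Ace had 256, 197, 33.8 and 97.6 FPM under Control and 212, 141, 16.5 and 47.4 FPM under HG+FFA.

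Parallel cultures of the same animals received the same stressors on top of AII+NA, and the groups of ALL against AII+NA share no library with those of HG+FFA against Control. The 50 DEG were called in a fit over all 15 KO VSMC libraries, however. The AII+NA and ALL libraries thus entered the filter and the estimate of spread behind those calls, and the 2 comparisons are not fully independent. Fitted on the AII+NA and ALL libraries only, where sets 6 to 8 carry the contrast, ALL against AII+NA gave 142 DEG of 16088 genes (0.883%). All 50 DEG of HG+FFA had the same direction there (all genes 50.5%), 49 with an unadjusted p under 0.05 (all genes 12.3%), and 32 were DEG. The direction held in 3 of 3 sets for 50 of 50, against 22.3% of all genes. In the fit over all 15 KO VSMC libraries, ALL against AII+NA gave 53 DEG (0.302%), and 24 of the 50 were among them. The animals are the same, so that this repeats the treatment, not the biological replicate.

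Angptl4 went from 17.9, 23.4 and 135 FPM under AII+NA to 219.8, 257 and 641 FPM under ALL in sets 6, 7 and 8, a log2FC of 3.06 (FDR 0.000109). Its AII+NA level in set 5 was 408 FPM, again far above sets 6 and 7. Stbd1 and Pdk4 had 2.44 (FDR 0.00170) and 1.75 (FDR 1.77e-05), and Ech1 and Lipe had 1.26 (FDR 1.93e-05) and 1.21 (FDR 0.000441). Among DEG that fell, Mylip, Ppp1r3c, Scd2 and Arrdc4 had -1.12 (FDR 0.00174), -1.0 (FDR 0.00579), -0.91 (FDR 0.000475) and -0.87 (FDR 0.00393). All of these were DEG there as well. Cpt1a went from 127, 106 and 116 to 258, 205 and 182 FPM, a log2FC of 0.87 (FDR 0.000723), with 215 FPM in the AII+NA library of set 5. Adcy1, at 0.48 (FDR 0.0859), Or5m3b, at 0.54 (FDR 0.282), and S100b, at -0.44 (FDR 0.0966), were not DEG there. Of the PPAR target genes, 13 rose and 1 fell (all genes 0.441% and 0.441%, median 0.49). The LXR list had 4 that fell (median -0.26).

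**Figure D5:**
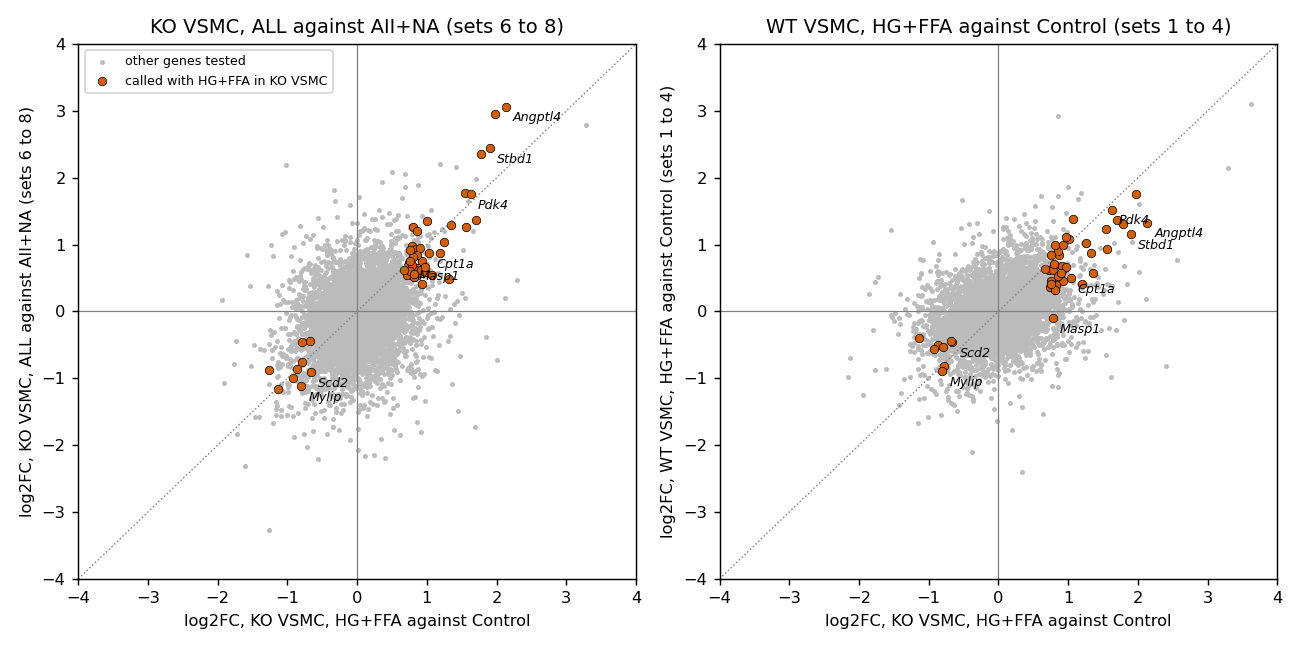
Log2FC of HG+FFA against Control in KO VSMC (x axis) and, on the y axes, of ALL against AII+NA in KO VSMC (left) and of HG+FFA against Control in WT VSMC (right). Orange points are the 50 DEG of the x axis and grey points the other genes tested, with a dotted line of equal values. All 50 DEG keep their sign on the left, and 48 of 49 on the right, where Masp1 is the exception.

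The effect of HG+FFA was then compared with that in WT VSMC, to ask whether it differed without Egfr. WT VSMC had 48 DEG of 16905 genes (0.284%), and 13 of the 50 DEG of KO VSMC were among them. Of 49 DEG tested there, 48 had the same direction (all genes 68.5%), 42 with an unadjusted p under 0.05 (all genes 10%). Angptl4, Pdk4 and Cpt1a had WT log2FC of 1.32 (FDR 0.0574), 1.52 (FDR 0.00667) and 0.49 (FDR 0.133). Ppp1r3c, Arrdc4 and Mylip had -0.56 (FDR 0.161), -0.50 (FDR 0.422) and -0.89 (FDR 0.00649). Masp1, a complement protease, rose in KO VSMC (0.78) but had -0.11 (FDR 0.914) in WT VSMC.

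The difference between the genotypes, tested itself in a joint model of 31 libraries, gave 0 DEG by edgeR with DESeq2 and 0 and 0 by either alone, with 564 genes of 18339 (3.08%) at an unadjusted p under 0.05 and a smallest FDR of 1. Of the 50 DEG, 6 had an unadjusted p under 0.05 for it. The 5 DEG of either genotype with the smallest p, none of which passed the adjustment, had KO minus WT differences in log2FC of 0.60 ± 0.18 for Cd34 (p 0.00248), 0.78 ± 0.24 for Npy1r (p 0.00335), 0.89 ± 0.28 for Masp1 (p 0.00372), -0.48 ± 0.18 for Pals2 (p 0.0136) and -0.44 ± 0.17 for Rrs1 (p 0.0182) (SE, unadjusted edgeR p). Cd34, Pals2 and Rrs1 were DEG in WT VSMC. For Angptl4 the difference was 0.80 ± 0.50 and for Pdk4 0.10 ± 0.33, and a p that misses the threshold does not show that the genotypes respond alike. Without set 5 the test gave 0 DEG, 2196 genes at an unadjusted p under 0.05 and a smallest FDR of 0.369.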

How the data were processed

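Poly(A) RNA of cultured cells was sequenced as read pairs. The authors aligned the reads to mm39 with HISAT2 2.1.0, assigned them to Ensembl exons with featureCounts, counting reads with several alignments, and deposited the raw count of reads per gene. The strand setting is not given in the sources used here, so that antisense partners cannot be told apart. Symbols and positions come from GENCODE (GRCm39), which held 56310 of 56953 identifiers (the rest took 0.0245% of KO VSMC counts).

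Counts of all genes in 15 KO VSMC libraries (23238979 to 35120866 counts each, which limits precision for genes of few FPM) were fitted in R 4.3.3 with edgeR 4.0.16 (filterByExpr, TMM, quasi-likelihood) and DESeq2 1.42.0, with treatment and set as terms, and plotted with matplotlib 3.10.9. Set ratios had 0.1 FPM added. A set is 1 animal, and deviations from the treatment means correlated at 0.781 on average within a set (lowest 0.644, 13920 genes). On simulated data for this contrast, 75.5% of 200 genes with a log2FC of 0.75 were called, among 17196 genes. With a log2FC of 1.5 it was 99% of 200, among 17198 genes. Whether these shares hold for the measured libraries, whose sets differed in how strongly they responded, was not tested.

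By rule, the text names Egfr, the DEG with the greatest |log2FC| (at most 15 that rose and 10 that fell), list members that were DEG or had the highest FPM, leading genes called only without set 5, the 5 with the smallest p between genotypes, and markers. Other names, including further DEG and list members called without set 5, were chosen after their values were seen. Some genes are included in the counts but not reported here by name. The comparison, members and lists were chosen with earlier results of these data known. Alternatives were another tool, scaling, filter, threshold or pseudocount, no pairing, only the groups compared, and each set left out.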

Additional observations from a re-analysis of the deposited data

Results flagged for a closer look

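Dixon's test at 95%, a level of about 1 in 20 for a single group, was applied to 67 groups of 4 sets. These were the log2 ratios of the DEG, Egfr, the summed markers and the set medians. A set far from the rest was found in 8 groups. Of the DEG log2 ratios, only those of Pdk4 and Gabra3 were among the 8. The others were levels of Egfr or summed markers, with Control and HG+FFA of the same sets counted apart. The groups are not independent, so the 8 cannot be set against that level. All but 1 of the 8 groups concerned set 5, which keeps Egfr RNA. Egfr in set 5 was 39.4 FPM under Control and 33.1 FPM under HG+FFA, against at most 1.71 and 1.96 FPM elsewhere. Summed leukocyte markers in set 5 were 158 and 190.3 FPM, and its Schwann cell and neuronal markers were 97.0 FPM under Control, where the other sets had 55.7, 56.6 and 56.0 FPM. The log2 ratio of Pdk4 was 0.48 in set 5 and 1.90, 1.93 and 2.07 in the others. That of Gabra3 was 2.35 in set 5 and 1.34, 1.45 and 1.3 in the others, so that set 5 did not respond least throughout. Summed adipocyte markers in set 8 under HG+FFA were 125 FPM, against 43.1, 30.4 and 29.3 FPM, of which Fabp4 made up 104 and Lipe 20.9 FPM in set 8.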

How the results depend on the processing

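The 50 DEG of HG+FFA in KO VSMC became 91 (58 higher, 33 lower) with DESeq2 alone, 17 (15 higher, 2 lower) with a |log2FC| of at least 1 and 85 (54 higher, 31 lower) without the count filter. Without the pairing by set (no replicate block) they became 0 (0 by edgeR and 1 by DESeq2 alone, 407 genes at an unadjusted p under 0.05). With only the 2 groups compared they became 0 (0 by edgeR, 56 by DESeq2 alone, 755 at an unadjusted p under 0.05, smallest FDR 0.309). With set 5 left out in addition there were 15 (13 higher, 2 lower). Leaving out single sets gave 0 (without set 7) to 289 (without set 5). ALL against AII+NA went from 53 DEG to 129 with DESeq2 alone, 21 with a |log2FC| of at least 1, 125 without the count filter, 142 with only the 2 groups, 0 without the pairing (0 by edgeR and 3 by DESeq2 alone, 433 at an unadjusted p under 0.05), and 2 to 41 with a set left out, 2 without set 6 or without set 7. For the difference between genotypes all alternatives gave 0 DEG by both tools (by edgeR alone 23 without the count filter and by DESeq2 alone 1 without set 8, and 82 to 2196 genes at an unadjusted p under 0.05). The list members called went from 13 to 31 without set 5. Of the genes named, 2 changed sign, neither of them called with all sets, namely Egfr without the pairing (-0.17) and Mfsd4a, which ranged from -0.052 without set 8 to 1.09 without set 5. The FDR of 58 of them no longer passed without the pairing, of 53 without set 6, of 58 without set 7 and of 28 without set 8. The cause of these changes was not tested. A pseudocount of 1 FPM moved the set medians by less than their SD.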
